A study of Mus musculus with 2 samples.

Results

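Heat shock proteins and the chaperones of the endoplasmic reticulum (ER) were compared between the small intestine of mice fed EPA&DHA and that of mice fed the control diet. The members were 44 genes named in a list: 15 cytosolic heat shock proteins and partners, 4 subunits of the TRiC chaperonin, 4 mitochondrial chaperones, 16 ER chaperones and folding enzymes, and 5 transcription factors. All probesets whose annotated symbol, current or older, was a member were taken, whatever their signal. They numbered 107 probesets for 42 members, of 45037 in the table without controls. Of these, 95 probesets for 41 members were bright enough to be kept, against 11679 genes with a kept probeset in all. Hsp90ab1 and Hsf1 were not analysed here. Hspb8 had 3 probesets, none of them kept: their signals, control first and EPA&DHA second, were 55.5 and 46.4, 70.3 and 20.1, and 6.28 and 4.49.

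All mice were male C57BL/6J, an inbred laboratory strain, aged 4 months, and ate a semisynthetic diet holding 20% fat for 4 weeks. The control diet, sHFf, took its fat from flaxseed oil, which is rich in the plant n-3 fatty acid ALA. In the EPA&DHA diet, sHFf-F2, 44% of that fat gave way to a concentrate with 6% EPA and 51% DHA, the long-chain n-3 fatty acids of fish oil. Each diet was fed to 12 mice, and RNA from 10 control mice and 11 EPA&DHA mice was pooled and hybridized to 1 Affymetrix mouse array per diet. With 1 array per diet there was no test, no standard error and no p-value, and the spread between mice could not be seen. The labels describe whole small intestine homogenized in TRIzol, whereas the study's methods describe scraped epithelial cells.

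Values are MAS 5.0 signals, a brightness with no unit, scaled to the same trimmed mean of 500 on both arrays. For each gene the kept probeset of highest mean signal was used, among those that carry no other gene's name. Pairs of signals are given with the control diet first. Differences are log2 ratios of EPA&DHA over control, so that 0 is no difference and 0.58 is 1.5-fold. The error given beside a ratio is the local SD, a robust SD of the log2 ratios of the 500 kept probesets nearest in signal. It holds measurement error and any true differences of those probesets together, and it measures no spread between animals. Its median was 0.61 in the dimmest of 4 equal groups of kept probesets and 0.24 in the brightest. The median gene lay at -0.05. Probesets differ in their chemistry, so differences were taken between diets within a probeset. Signals of different probesets were summed or ranked only as a rough guide to brightness.

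The tissue was checked against marker genes. Absorptive enterocytes were clearly present, with 11 of 12 markers measured and a summed signal of 391209 for control and 338282 for EPA&DHA. Markers of goblet cells (8 of 8 measured, 188940 and 152451) and Paneth cells (6 of 7, 72825 and 59764) were also bright. Smooth muscle markers (8 of 10) summed to 1737 and 1458, and fibroblast markers (6 of 10) to 1614 and 1272. Markers of the exocrine pancreas, an organ that lies beside the duodenum, summed to 5135 for control and 14830 for EPA&DHA, and all 10 measured of 15 were higher in the EPA&DHA pool. In RNA of a whole tissue, fewer cells of a type and less RNA per cell cannot be told apart.

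Chaperones bind unfolded proteins and help them fold, and they hand over those that cannot be folded for degradation. In the cytosol, HSP70 works with J proteins that deliver clients and with exchange factors that release them, and it passes some clients to HSP90. When unfolded proteins gather in the cytosol, heat shock factor 1 binds heat shock elements, repeats of GAA and its complement TTC, and switches on the inducible members. In the ER, the HSP70 protein BiP (Hspa5), the HSP90 protein GRP94 (Hsp90b1), the lectins calnexin and calreticulin and the disulfide isomerases fold secreted and membrane proteins. There an overload of unfolded protein sets off the unfolded protein response (UPR), in which ATF6 and XBP1 act through ER stress response elements and ATF4 through amino acid response elements. Intestinal goblet, Paneth and plasma cells secrete much protein and are rich in ER.

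These elements can be read directly in the promoters, which are shown because the elements fall in different members: no ER member held the heat shock motif below, and no cytosolic member held an ER stress response element. RefSeq promoters of the mouse build GRCm38.p6, from 250 bases before to 50 after the start site, were found for 37 of the 44 members and searched on both strands. Some members have more than 1 promoter, and such a member was counted if any of them held the motif. The shortest heat shock motif searched was a pair of units facing each other, GAANNTTC or TTCNNGAA. The stretches below run 5′ to 3′ along the strand of the gene and end before its start site, with the motif in capitals. The 9 heat shock promoters are Hspa1a (chr17:34972233-34972280, minus strand), Hspa1b (chr17:34959315-34959362, minus), Hsph1 (chr5:149636342-149636389, minus), Hspb1 (chr5:135887782-135887849, plus), Hspe1 (chr1:55088039-55088096, plus), Dnaja1 (chr4:40722324-40722371, plus), Dnajb4 (chr3:152193846-152193879, minus), Cct2 (chr10:117063390-117063437, minus) and Cct5 (chr15:31601853-31601900, minus). The first 4 belong to cytosolic genes that were at least 1.5-fold lower in the EPA&DHA pool, and the other 5 to genes that were not. Hspd1 shares the bases shown for Hspe1, and the matches of Bag3 and Hspb8 lie past the start site.
Hspa1a: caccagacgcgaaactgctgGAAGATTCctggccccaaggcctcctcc
Hspa1b: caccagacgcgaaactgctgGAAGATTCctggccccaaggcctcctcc
Hsph1: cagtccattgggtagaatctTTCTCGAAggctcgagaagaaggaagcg
Hspb1: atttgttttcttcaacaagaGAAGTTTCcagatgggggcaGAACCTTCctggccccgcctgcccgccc
Hspe1: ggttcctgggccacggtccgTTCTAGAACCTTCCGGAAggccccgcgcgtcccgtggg
Dnaja1: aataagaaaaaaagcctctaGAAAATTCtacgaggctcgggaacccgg
Dnajb4: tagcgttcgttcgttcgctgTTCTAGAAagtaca
Cct2: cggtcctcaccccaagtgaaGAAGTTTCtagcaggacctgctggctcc
Cct5: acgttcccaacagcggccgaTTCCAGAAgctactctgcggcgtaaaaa

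The ER stress response element was searched as CCAAT, then any 9 bases, then CCACG, and its relative ERSE-II as ATTGG, any 1 base, and CCACG. A motif that lies on the other strand of the gene appears below as its reverse complement. The 8 promoters are Hspa5 (chr2:34772005-34772063, plus), Hsp90b1 (chr10:86705513-86705676, minus), Calr (chr8:84847055-84847113, minus), Canx (chr11:50325780-50325838, minus), Pdia6 (chr12:17266471-17266529, plus), Creld2 (chr15:88819500-88819558, plus), Dnajc3 (chr14:118937807-118937865, plus) and, with ERSE-II, Herpud1 (chr8:94386357-94386407, plus).
Hspa5: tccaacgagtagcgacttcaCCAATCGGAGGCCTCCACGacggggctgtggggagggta
Hsp90b1: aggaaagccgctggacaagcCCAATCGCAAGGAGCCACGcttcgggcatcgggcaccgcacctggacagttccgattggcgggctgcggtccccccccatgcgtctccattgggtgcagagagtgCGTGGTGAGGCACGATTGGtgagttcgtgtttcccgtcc
Calr: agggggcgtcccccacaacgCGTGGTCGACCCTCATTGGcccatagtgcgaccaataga
Canx: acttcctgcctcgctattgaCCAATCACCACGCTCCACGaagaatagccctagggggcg
Pdia6: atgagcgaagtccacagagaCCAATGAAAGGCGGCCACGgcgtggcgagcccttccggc
Creld2: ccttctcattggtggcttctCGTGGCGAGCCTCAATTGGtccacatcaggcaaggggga
Dnajc3: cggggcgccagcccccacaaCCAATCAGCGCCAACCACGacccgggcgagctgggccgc
Herpud1: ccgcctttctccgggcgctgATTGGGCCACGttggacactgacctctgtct

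The ER stress response element was held by 7 members, all of them ER proteins and all printed above, and by 0.119% of 32851 promoters (39 in all). ERSE-II was held by Herpud1, by Dnajb11, where it lies past the start site, and by 0.037% of all promoters (12 in all). The heat shock pair was far more common, in 15.056% of all promoters and in 12 members. A run of 3 units was in 0.603% of all promoters and in Hspd1, Hspe1 and Hsph1. The run of Hsph1 lies past the start site, so the stretch printed for Hsph1 does not hold it. Hspd1 and Hspe1 are neighbours read in opposite directions whose promoters share 285 bases, so their matches are the same bases. The UPRE, spelled TGACGTGG, was in no member and in 0.676% of promoters. The amino acid response element TGATGNAA was in Herpud1 alone among the members and in 3.969% of promoters. A match is a string of letters and not a measured binding site.

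Read by the brightest probeset of each gene, no chaperone was at least 1.5-fold higher in the EPA&DHA pool and 7 were at least 1.5-fold lower. Over all 95 kept probesets of the members, 7 were higher and 11 lower, close to the 8.06% and 8.85% of all kept probesets past that fold. Among all measured genes, 6.2% were at least 1.5-fold higher, against 0 of the 41 members. The 7 lower members stood against 7.89% of all genes at that fold. They were the inducible cytosolic Hspa1a, Hspa1b, Hsph1 and Hspb1 and the ER genes Hyou1, Pdia4 and Serpinh1. Of these, Hspa1b, Hsph1, Hyou1 and Serpinh1 had more than 1 kept probeset, all below 0. Hspa1a, Hspb1 and Pdia4 had only 1 each, and dimmer probesets of Hspb1 and Pdia4, not kept, pointed the other way. At 2-fold no member was counted in either direction, against 1.55% of all genes higher and 2.23% lower. Over all members the median log2 ratio was -0.14, with 16 members above 0 and 25 below. The share below 0 was 61.0%, near the 56.4% of all measured genes.

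Most chaperones were read by bright probesets, and bright probesets vary less between these arrays. Of the 41 members, 37 had a mean signal above the median gene, 507. Among these 37, 4 were at least 1.5-fold lower (Hspa1b, Hsph1, Hyou1 and Pdia4), against 2.09% of all genes above that signal, and 0 were higher, against 3.05%. The other 3 lower members, Hspa1a, Hspb1 and Serpinh1, were dim.

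**Figure D1:**
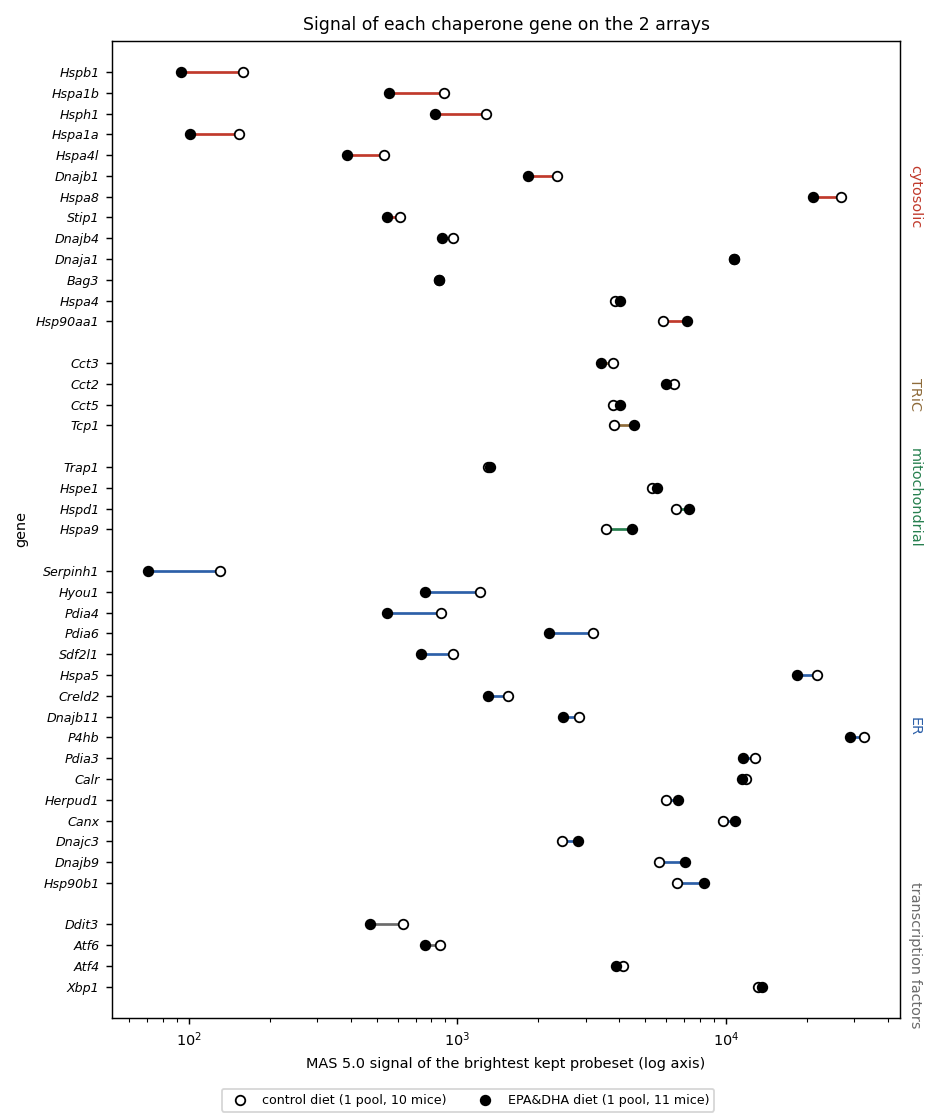
Signal of the brightest kept probeset of each of 41 chaperone genes in the control pool (open circles) and the EPA&DHA pool (filled circles), on a log axis of MAS 5.0 signal, ordered by compartment and log2 ratio. Long bars to the left mark Hspb1, Hspa1b, Hsph1 and Hspa1a among cytosolic genes and Serpinh1, Hyou1 and Pdia4 among ER genes, whereas the filled circles of all 4 mitochondrial genes lie on the right.

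By compartment, the medians of the cytosolic and ER members were below that of all genes, -0.05, and that of the mitochondrial members above it. The 13 measured cytosolic members had a median of -0.34, with 9 (69.2%) below 0 and a range of -0.77 to 0.29. The 16 ER members had a median of -0.19, with 11 (68.8%) below 0 and a range of -0.90 to 0.33. Of all measured genes 56.4% were below 0, and of those above the median signal 58.1%. All 4 mitochondrial members were above 0, with a median of 0.11 and a range of 0.02 to 0.32. The TRiC subunits centred on -0.01 and the transcription factors on -0.14. The difference between the cytosolic and ER medians was -0.15, and its sign was not stable. It was 0.03 when a gene took the mean of its kept probesets, 0.04 without probesets of the x, s or a suffix, 0.03 without those of x or s alone (x and s mark probesets that can also match other genes, a those that match several transcripts of 1 gene), 0.02 with a stricter filter on signal, and 0.05 with the TRiC subunits counted as cytosolic. Cytosolic and ER members were therefore not separated in these data, while the mitochondrial median stayed above both medians under every setting tried.

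**Figure D2:**
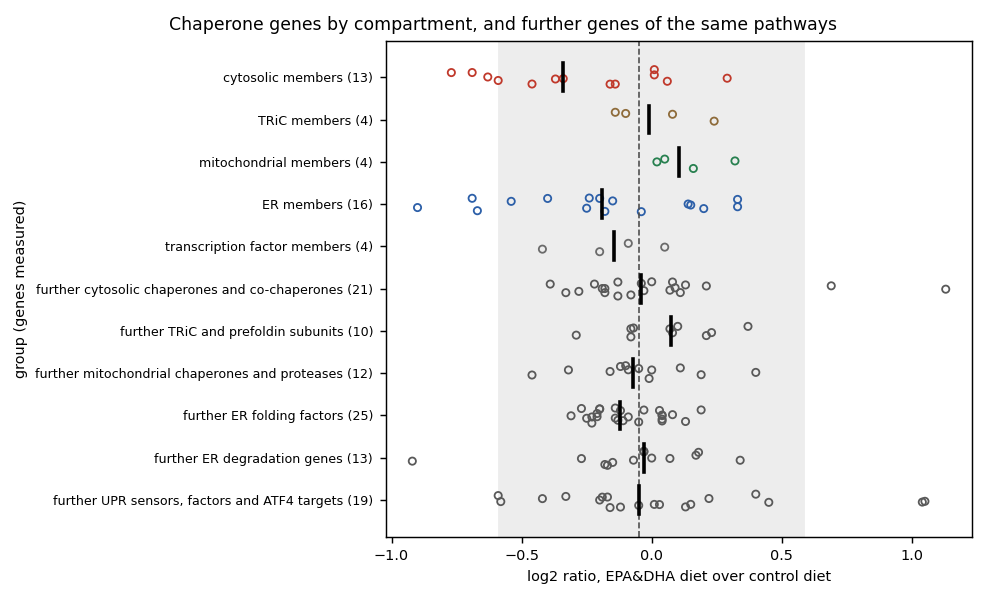
Log2 ratio, EPA&DHA over control, of each measured gene (circles) in the member groups (coloured) and in lists of further genes of the same pathways (grey), with the median of each group as a black bar. The grey band spans 1.5-fold either way and the dashed line is the median of all measured genes, -0.05; only the cytosolic and ER members have several genes left of the band.

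Hspa1a and Hspa1b encode the stress-inducible HSP70 and were among the largest differences of the cytosolic members. Hspa1b had signals of 894 (control) and 555 (EPA&DHA) on its brightest probeset, a log2 ratio of -0.69 (local SD 0.29), or 1.61-fold lower. Its other probesets went from 859 to 269 (-1.68) and from 444 to 223 (-0.99). All 3 were lower in the EPA&DHA pool, by 1.61-fold, 3.2-fold and 1.99-fold. Hspa1a had a single probeset, at 153 and 101 (-0.59, local SD 0.52), which lay just past 1.5-fold and within 2 local SDs of 0. The genes are near-identical copies on chromosome 17, with 296 of 300 promoter bases the same, so signal cannot be divided between them with certainty. Counted as 1 gene, they left 3 cytosolic members at least 1.5-fold lower in place of 4, with a cytosolic median of -0.25 in place of -0.34.

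Among the other HSP70 proteins and their exchange factors, Hsph1 and Hspa4l were lower on every probeset. Hsph1, the large HSP110 that acts as an exchange factor and is itself induced by heat, had signals of 1277 and 825 (-0.63, local SD 0.25) and 621 and 464 (-0.42) on its probesets. Hspa4l, a related exchange factor, was lower on all 5 of its probesets, at 533 and 388 on the brightest (-0.46, local SD 0.33) and between -0.46 and -0.21 over all. Hspa4, the third of these large proteins, had 3852 and 4021 on its brightest probeset (0.06, local SD 0.21). Its other probesets pointed both ways, at 0.73, -0.42 and 1.79, the last of them from a dim 30.2 to 104. Hspa8, the constitutive HSP70, had 26823 and 21152 (-0.34, local SD 0.20) on its brightest probeset, where probesets of like signal had a median of -0.09. Its other probesets lay at -0.20, 0.50 and -0.05, so no single direction held for Hspa8.

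The J proteins, which bring clients to HSP70 and start its ATPase cycle, were close to 0 or slightly lower. Dnajb1, the heat-inducible HSP40, had 2349 and 1823 (-0.37, local SD 0.24) and 1576 and 1335 (-0.24). Dnaja1 was at 10666 and 10704 (0.01, local SD 0.24) and at 5371 and 5258 (-0.03). A further Dnaja1 probeset went from 2056 to 5114 (1.31), apart from the other two. Dnajb4 lay at -0.14 (963 and 876, local SD 0.27) and -0.03, with a dim probeset 2.14-fold higher (35.3 and 75.5).

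On the HSP90 side, differences were small and mixed. Hsp90aa1, the inducible HSP90, had 5820 and 7136 (0.29, local SD 0.25) on its brightest probeset but 4580 and 3648 (-0.33) and 2161 and 1821 (-0.25) on the other two kept. Stip1, which joins HSP70 to HSP90, had 610 and 547 (-0.16, local SD 0.30). Hsp90aa1 was the only cytosolic member above 0 by more than its local SD, and its probesets did not share a direction.

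Hspb1, the small heat shock protein HSP27 that holds unfolding proteins in solution, had 159 and 93.2 (-0.77, local SD 0.52). A dimmer Hspb1 probeset, which was not kept, read 4.59 and 70.3, the opposite direction, below the level kept. Bag3, a co-chaperone that links HSP70 to small heat shock proteins and is a known target of heat shock factor 1, was equal at 851 and 856 (0.01, local SD 0.26). Among the other inducible genes, Hsp90aa1 lay at 0.29, -0.33 and -0.25 on its kept probesets, and Dnajb1 at -0.37 and -0.24.

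The TRiC ring, which folds actin and tubulin, showed no common direction. Tcp1 was at 3830 and 4538 (0.24, local SD 0.23), Cct5 at 3787 and 4016 (0.08), Cct2 at 6385 and 5950 (-0.10) and Cct3 at 3783 and 3430 (-0.14). Cct3 was below 0 on all 5 kept probesets, between -0.37 and -0.06. Cct2 had another probeset at -0.09 and one at 0.70 (1485 and 2408).

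In mitochondria, imported proteins are pulled in by mortalin (Hspa9) and folded in the HSP60 and HSP10 chamber (Hspd1, Hspe1). Hspa9 had 3570 and 4470 (0.32, local SD 0.22) and 2588 and 3265 (0.34), with the dimmer probesets at -0.50 and -0.10. Hspd1 had 6528 and 7306 (0.16, local SD 0.24), and Hspe1 had 5314 and 5513 (0.05) and 822 and 849 (0.05). Trap1, the mitochondrial HSP90, was equal at 1295 and 1317 (0.02, local SD 0.25). Hspa9 was the only mitochondrial member more than 1 local SD from 0.

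By brightest probeset, the HSP70 system of the ER held the largest spread within a single machine of the members, -0.69 to 0.33. BiP (Hspa5) had 21830 and 18381 (-0.25, local SD 0.20) on its brightest probeset, 9376 and 10196 (0.12) on the next and 1093 and 1426 (0.38) on the dimmest, so its probesets did not share a direction. Hyou1, the exchange factor of BiP, was lower on all 3 probesets, at 1218 and 755 (-0.69, local SD 0.27), 331 and 297 (-0.16) and 111 and 43.3 (-1.36). The size of the Hyou1 difference rested on which probeset was read, and the last of them was below the kept level on the EPA&DHA array. Sdf2l1, which works with BiP and its J proteins, had 964 and 732 (-0.40, local SD 0.26).

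The ER J proteins that steer BiP went different ways. Dnajb9 (ERdj4), which takes part in ER-associated degradation and restrains the sensor IRE1, had 5614 and 7038 (0.33, local SD 0.25). Dnajb11 (ERdj3) had 2841 and 2473 (-0.20, local SD 0.25). Dnajc3 (P58IPK) lay at 0.20 on its brightest probeset (2444 and 2816, local SD 0.25), with others at -0.15, -0.38, 0.16 and, on the dimmest, 1.20 (189 and 436). None of the 3 genes reached 1.5-fold on its brightest probeset.

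GRP94 (Hsp90b1), which folds integrins and Toll-like receptors, had 6592 and 8296 (0.33, local SD 0.24) on one probeset and 4917 and 4264 (-0.21) on the other. Of the lectin cycle, which folds glycoproteins, calreticulin (Calr) had 11813 and 11459 (-0.04), calnexin (Canx) 9768 and 10835 (0.15) and their partner Pdia3 12782 and 11525 (-0.15), each with a local SD of 0.23 or 0.24. The study used calnexin as a reference gene for quantitative PCR, and its other probesets were at -0.19 and -0.01. Herpud1, a UPR-induced part of the degradation complex, was above 0 on both probesets, at 5999 and 6599 (0.14) and 3625 and 5146 (0.51).

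The disulfide isomerases, which form and reshuffle disulfide bonds, were below 0 in 4 of 4 genes with their co-factor Creld2 included. The share below 0 among all measured genes was 56.4%. Pdia4 had 868 and 545 (-0.67, local SD 0.29) and Pdia6 3190 and 2199 (-0.54, local SD 0.25), the latter 1.45-fold lower and just inside 1.5-fold. P4hb, the main isomerase, had 32717 and 28948 (-0.18, local SD 0.20), and Creld2 had 1538 and 1303 (-0.24, local SD 0.24). Pdia4 and Pdia6 thus lay about 2 local SDs below 0 and P4hb and Creld2 about 1 or less. Probesets of like signal to P4hb had a median of -0.09, and under quantile normalization P4hb lay at -0.03. A dim Pdia4 probeset that was not kept read 2.26 and 35.8.

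Serpinh1 (HSP47), the ER chaperone of collagen, had 131 and 70.3 (-0.90, local SD 0.53) and 92.8 and 51.3 (-0.86), 1.86-fold lower on the first. Fibroblasts make both Serpinh1 and its clients, and their markers were also lower in the EPA&DHA pool: 5 of 6 measured were below 0, with Dcn at 295 and 158 (-0.90) and Col1a2 at 224 and 157 (-0.51). All 8 measured smooth muscle markers were below 0, with Des at -0.56 and Synm at -0.90. Synm read 86.5 and 46.5, below the kept level on the EPA&DHA array. Of all measured genes, 56.4% were below 0. Of the fibroblast markers, Col1a1, Lum, Dpt and Postn had no kept probeset. The part of these cells in the Serpinh1 difference was not tested.

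By brightest probeset, the transcription factors of the UPR had a median of -0.14, the same as all members, and a range of -0.42 to 0.05. Xbp1, whose spliced product drives ER expansion, had 13123 and 13585 (0.05, local SD 0.22), with 4 probesets between -0.06 and 0.11. Splicing of Xbp1 was not analysed here. Atf4 had 4141 and 3900 (-0.09, local SD 0.22) and a dimmer probeset at 0.54, and Atf6 had 863 and 754 (-0.20, local SD 0.26), with others at 0.32 and -0.57. Ddit3 (CHOP), the stress-induced factor tied to cell death, had 629 and 471 (-0.42, local SD 0.29) on its brighter probeset and 53.3 and 84.8 (0.67) on its dimmer one.

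**Figure D3:**
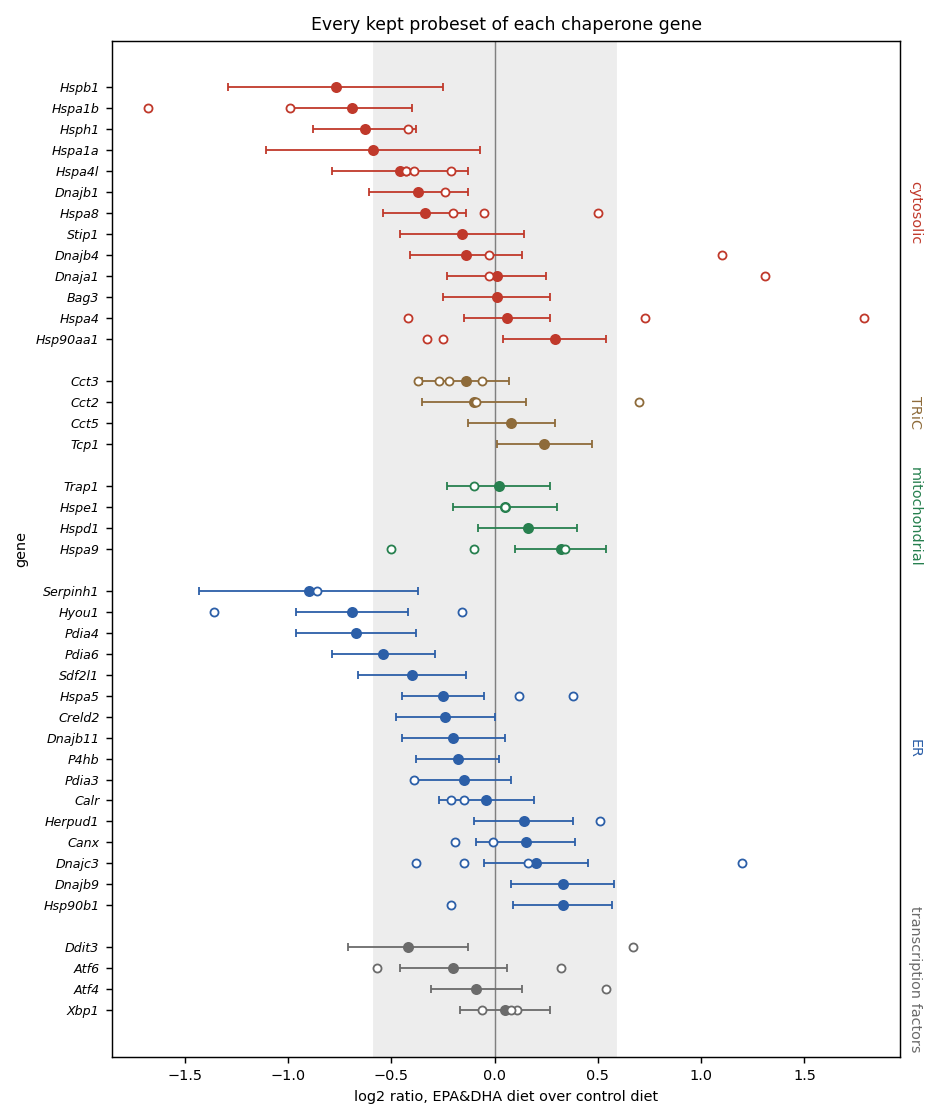
Log2 ratio, EPA&DHA over control, of every kept probeset of 41 chaperone genes: filled circles are the brightest probeset of a gene with its local SD as a bar (robust SD of 500 probesets of like signal), and open circles are the other kept probesets. The grey band spans 1.5-fold either way; Hspa1b has all 3 probesets to its left, whereas Hspa4, Dnaja1, Dnajb4 and Dnajc3 have 1 probeset far to its right while their brightest lies inside it.

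Probesets of the same gene often disagreed. Of 27 members with more than 1 kept probeset, 16 had probesets on both sides of 0, and of all such genes 54.4% did (2898 of 5326). Over the 95 kept member probesets, 34 were above 0 and 61 below, with a median of -0.14 against -0.04 for all kept probesets. At 1.5-fold and at least 3 local SDs from the local median, 2 were higher (Dnaja1 and Dnajc3, at 1.31 and 1.20), against 1.66%, and 1 was lower (Hspa1b at -1.68), against 0.474%. The ratio of 3′ to 5′ control probesets, a sign of how complete the RNA was, was 0.932 (control) and 0.793 (EPA&DHA) for Gapdh and 1.22 and 1.16 for Actb. The part of RNA integrity in the disagreement was not tested.

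The members were also read by promoter, beside the 7.89% of all genes that were at least 1.5-fold lower. The 9 ER members with the ER stress response element or ERSE-II had a median of -0.04, and none was at least 1.5-fold lower. In so small a group that count is uninformative at this share, and Pdia6, at -0.54, was just inside 1.5-fold. The 6 ER members with a promoter and neither element had a median of -0.29, and 2 of them were lower (Pdia4 and Serpinh1), with Hyou1 in neither group. In the cytosol, 7 measured members with a heat shock pair had a median of -0.59 and held all 4 lower genes, and the 4 without one had a median of -0.26 and held none, with Hspa8 and Hsp90aa1 in neither group. The 4 without a pair included the heat-inducible Dnajb1 (-0.37), so these groups do not divide inducible genes from others. With an offset of 50 added to the signals, 2 cytosolic members were at least 1.5-fold lower. Bag3, Dnaja1 and Dnajb4 also held the pair, with ratios of 0.01, 0.01 and -0.14. Outside the cytosol, Hspd1 and Hspe1 held a run of 3 units and lay at 0.16 and 0.05. These groups are small, Hspa1a and Hspa1b share their promoter, and no test was made of the difference.

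The wider chaperone network, taken from lists of further genes, lay close to the median gene. Of 25 further ER folding factors, all measured, none was at least 1.5-fold apart in either direction, the median was -0.12 and 17 lay below 0. Of 21 measured cytosolic chaperones and co-chaperones (29 listed), 2 were higher and none lower, with a median of -0.04, against 6.2% and 7.89% of all genes. They were Bag2, an inhibitor of the chaperone-linked ubiquitin ligase CHIP, at 39.1 and 85.5 (1.13, local SD 0.76), dim on the control array, and Fkbp5, an HSP90 co-chaperone of steroid receptors. Fkbp5, named after its values were seen, had 496 and 800 (0.69, local SD 0.27) on its brighter probeset and -0.12 on the other. The 10 further TRiC and prefoldin subunits (median 0.08) and the 12 further mitochondrial chaperones and proteases (median -0.07) had none apart, and 8 of the 12 lay below 0, unlike the 4 mitochondrial members.

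Among 13 measured genes of ER-associated degradation (14 listed), with a median of -0.03, 1 was lower: Derl3 at 199 and 105 (-0.92, local SD 0.48). Derl3 is also a plasma cell gene and stands in that marker list as well. Of the other markers, those of B cells were lower (Ms4a1 at -0.75, Cd79a at -0.71 and Cd79b at -0.65), whereas those of plasma cells were level or higher (Jchain at 11507 and 14860, 0.37, Prdm1 at 0.24, Mzb1 at -0.03 and the dim Tnfrsf17 at 43.2 and 101, 1.23). The remaining measured markers of the list, Pou2af1 and Irf4, lay at -0.21 and -0.02. The median of the list was -0.12, with 7 of 10 measured markers below 0. Its summed signal was 13774 for control and 16771 for EPA&DHA, most of it from Jchain alone. These marker genes were named after their values were seen, apart from Derl3 and Tnfrsf17. Among 19 UPR sensors, factors and ATF4 targets, with a median of -0.05, 2 were higher and 1 lower, in number near the 6.2% and 7.89% of all genes. Creb3l1, an ER-bound relative of ATF6, had 204 and 421 (1.04, local SD 0.38), Chac1, an ATF4 target that breaks down glutathione, had 54.6 and 113 (1.05, local SD 0.59), and Atf6b had 234 and 156 (-0.59, local SD 0.40). Only Creb3l1 lay more than 2 local SDs from 0 among these.

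Markers of secretory cells, which are rich in ER, were set beside the ER genes. The pancreatic markers were higher in the EPA&DHA pool by a median of 1.61, led by Cpb1 at 209 and 1353 (2.69) and Ctrb1 at 349 and 1951 (2.48). All 8 goblet cell markers lay below 0 (median -0.29, Fcgbp at -0.39 and Clca1 at -0.36), as did 5 of 6 Paneth cell markers (median -0.08, Ang4 at -0.48 and Lyz1 at -0.26). The Paneth cell median was thus near that of all genes, -0.05. Of the enterocyte markers 10 of 11 lay below 0 (median -0.19, Apoa4 at -0.38 and Apoa1 at -0.34). Many goblet cell and enterocyte markers were among the brightest probesets, where the local median was -0.09, and the scaling weighed on them. Under quantile normalization 6 of 11 enterocyte markers were below 0, with a median close to 0, and the goblet cell median was -0.19 with all 8 below 0. The ER members had a median of -0.19 under both scalings, although P4hb, also very bright, moved from -0.18 to -0.03. The part of any of these cells in the ER values was not tested.

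**Figure D4:**
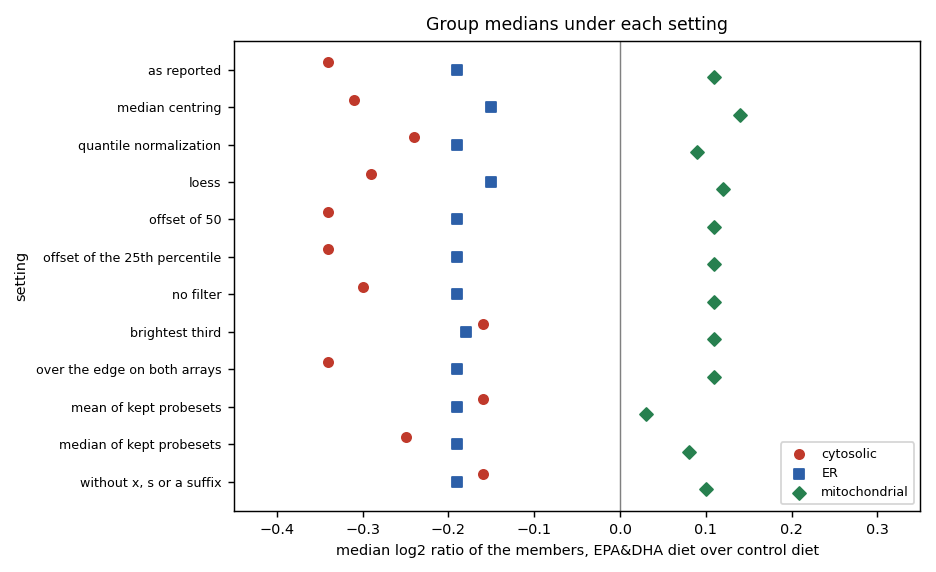
Median log2 ratio, EPA&DHA over control, of the cytosolic (circles), ER (squares) and mitochondrial members (diamonds) under the reported setting and 11 alternatives of scaling, offset, filter and probeset choice. The ER median stays between -0.19 and -0.15 and the mitochondrial median between 0.03 and 0.14, whereas the cytosolic median moves from -0.34 to -0.16 and crosses the ER median under 3 of them.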

How the data were processed

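For each diet the authors hybridized pooled RNA to 1 Affymetrix MOE430_2 array. They deposited MAS 5.0 signal intensity per probeset, made with a version not given in the sources used here. Of 45101 probesets, 64 controls were set aside. Symbols came from the platform annotation of 2016, updated through gene identifiers: 34981 probesets named 1 gene, 896 several and 9160 none. Both arrays were scaled to the same 2% trimmed mean of 500, and the 24270 probesets of highest mean signal (53.9%, mean signal from 51.1) were kept. The local SD is 1.4826 times the median absolute deviation over 500 neighbours. Counts used 1.5-fold and 2-fold. With 1 array per diet nothing was tested, and the number of arrays limits the precision. The members and gene lists were chosen with earlier results of these data known. All members were named; of each further list, genes at least 1.5-fold apart with all kept probesets on that side, at most 3 each way; of each marker list, at most 2 by size of the ratio. Alternatives were median centring, quantile normalization, loess (span 0.3), offsets of 50 and 18.4, 3 other filters and 3 other ways to read a gene. The counting was checked on simulated data. Promoter sequences are RefSeq's for GRCm38.p6; protein sequences were not used here. Python 3.11.15, numpy 2.4.6, pandas 2.3.3, scipy 1.17.1, statsmodels 0.14.6 and matplotlib 3.10.9 were used.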

Additional observations from a re-analysis of the deposited data

How the results depend on the processing

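No paired analysis was possible because each diet had 1 array. Of 120 summary values under alternatives, 104 moved little. With an offset of 50, cytosolic members at least 1.5-fold lower numbered 2 in place of 4. A stricter filter, which drops the dim members, left 4 members lower in place of 7, 2 of them cytosolic, with a cytosolic median of -0.16 and a cytosolic minus ER difference of 0.02. With the mean of kept probesets these were -0.16 and 0.03. Without probesets of the x, s or a suffix, only 32 members were measured, and Hsph1, Hspb1 and Serpinh1 were not among them. Of the 32, 3 were lower, 2 cytosolic (Hspa1a and Hspa1b) and 1 ER, with -0.16 and 0.04. Of these suffixes a marks transcripts of 1 gene, and without x and s alone, chosen after seeing the data, 6 members were lower, 4 cytosolic and 2 ER, with -0.16 and 0.03. With TRiC counted as cytosolic, also chosen after seeing the data, they were -0.14 and 0.05. The difference had the opposite sign, -0.15, as reported. With Hspa1a and Hspa1b counted as 1 gene, also chosen after seeing the data, 6 members were lower, 3 of them cytosolic. The cytosolic median was then -0.25 and the difference -0.06. Hspa1b and Pdia4 stayed at least 1.5-fold lower under 11 of 11 alternatives, Hyou1 under 10 of 11 (-0.16 without suffixed probesets), Serpinh1 under 9 of 9, Hsph1 under 8 of 10, Hspb1 under 8 of 9 and Hspa1a under 5 of 10. Of 439 gene values, 25 moved by more than the local SD, all with another choice of probeset. Scaling moved the median of all genes by at most 0.04. Dim probesets limit Hspa1a, Hspb1 and Serpinh1, whose local SD is over 0.5.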

Other observations

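The clock genes had a median log2 ratio of 0.54. They were higher in the EPA&DHA pool in 10 of 14, against 5087 of all 11679 measured genes. At 1.5-fold, 6 clock genes were higher, against 6.2% of all genes, and 2 lower, against 7.89%. The 2 lower genes, named after their values were seen, were Npas2 at 631 and 327 (-0.95) and Arntl at 433 and 244 (-0.82), which activate the clock's targets. Ciart, a repressor of the clock, read 16.8 on the control array and 232 on EPA&DHA (3.79, below the kept level on the control array), and Cry2 read 208 and 432 (1.06). Cirbp, an RNA-binding protein induced by mild cold, had signals of 433 and 578 (0.42, local SD 0.29). Its relative Rbm3 was read only by probesets that also name Rbm3-ps, at 4080 and 5950 (0.54) and 130 and 135 (0.05). The part of clock phase in the heat shock values was not tested.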
